A study of Homo sapiens with 4 samples.

Results

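The 10 genes described here encode the enzymes that write, copy and remove methylation of DNA and the core of Polycomb repressive complex 2 (PRC2). They were taken by name, DNMT1, DNMT3A, DNMT3B, UHRF1, TET1, TET2, TET3, EZH2, SUZ12 and EED, and all 10 were found among the 64252 rows of the deposited count table. The RNA came from the human neuroblastoma line SK-N-BE(2), an established line with amplified MYCN. The 4 libraries comprised 2 of cells carrying a short hairpin RNA against IGF2BP3 (shIGF2BP3) and 2 of cells carrying a control hairpin (shControl, sh-NC in the design text), with no other treatment or time point in the labels. IGF2BP3 binds mRNA and reads the m6A mark, and the series title asks whether it stabilises E2F2 mRNA. How many hairpins, clones or cultures stand behind each group is not given in the sources used here, so every p-value below reflects variation among 4 libraries that may be technical in origin.

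DNA methylation in mammals is placed on cytosines next to guanines. DNMT3A and DNMT3B add it to unmarked DNA, and DNMT1 copies it onto the new strand after replication, guided there by UHRF1, which binds the sites methylated on the old strand alone. TET1, TET2 and TET3 oxidise the methyl group, the first step of its removal. PRC2 methylates histone H3 at the site called H3K27 and keeps developmental genes silent. EZH2 is its catalytic subunit, SUZ12 its scaffold, and EED binds the mark that the complex makes. In neuroblastoma EZH2 has been studied as a repressor of differentiation and tumour suppressor genes. Methylation, histone marks and proteins were not measured, and all values below are RNA levels.

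IGF2BP3, the targeted gene, stood at 157 and 139 CPM (counts scaled to library size, with TMM factors) in shControl and at 28.7 and 31.9 CPM in shIGF2BP3. Library totals ran from 26755695 to 31946756 counts, and the 10 genes had 201 to 9793 counts per library, so the counting error of a single value lay between 7.05% (DNMT3B) and 1.01% (DNMT1). Replicates were not copies of one library: chi-square divided by its degrees of freedom was 6.73 and 7.77 within groups and 129 to 137 between groups. Markers of sympathetic neuroblasts were present, and they moved in both directions: of 7 described, 5 fell, 1 rose and 1 did not pass. MYCN stood at 4635 and 4848 CPM in shControl and 4187 and 3961 CPM in shIGF2BP3. The transcription factor HAND2 fell from 846 and 861 CPM to 376 and 351 CPM, and TH, the first enzyme of catecholamine synthesis, from 258 and 263 CPM to 144 and 128 CPM. DBH, a later enzyme of that pathway, rose from 40.1 and 46.0 CPM to 143 and 132 CPM. SOX10 (Schwann cells), CD3E and LYZ (leukocytes) had 0 counts in every library, which allows up to 0.0958 to 0.111 CPM at 3 counts, and the epithelial CDH1 had at most 0.0743 CPM. The summed level of each list of 5 markers ran from 5.20 to 9.21 CPM for Schwann cells and glia, 5.36 to 12.7 CPM for epithelium and 1.95 to 3.32 CPM for leukocytes. Among 5 fibroblast markers, all detected, the summed level was 402 and 413 CPM in shControl and 549 and 534 CPM in shIGF2BP3. The fibroblast markers also moved in both directions: 3 rose, 1 fell and 1 did not pass. On the log2 scale (shIGF2BP3 over shControl), COL1A1 changed by 1.77, COL3A1 by 1.62, DCN by 0.32 and LUM by -1.09. PDGFRA did not pass. Over all tested genes 25.9% were called higher and 25.6% lower by the test described below. The part of these markers in the results below was not tested.

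**Figure D1:**
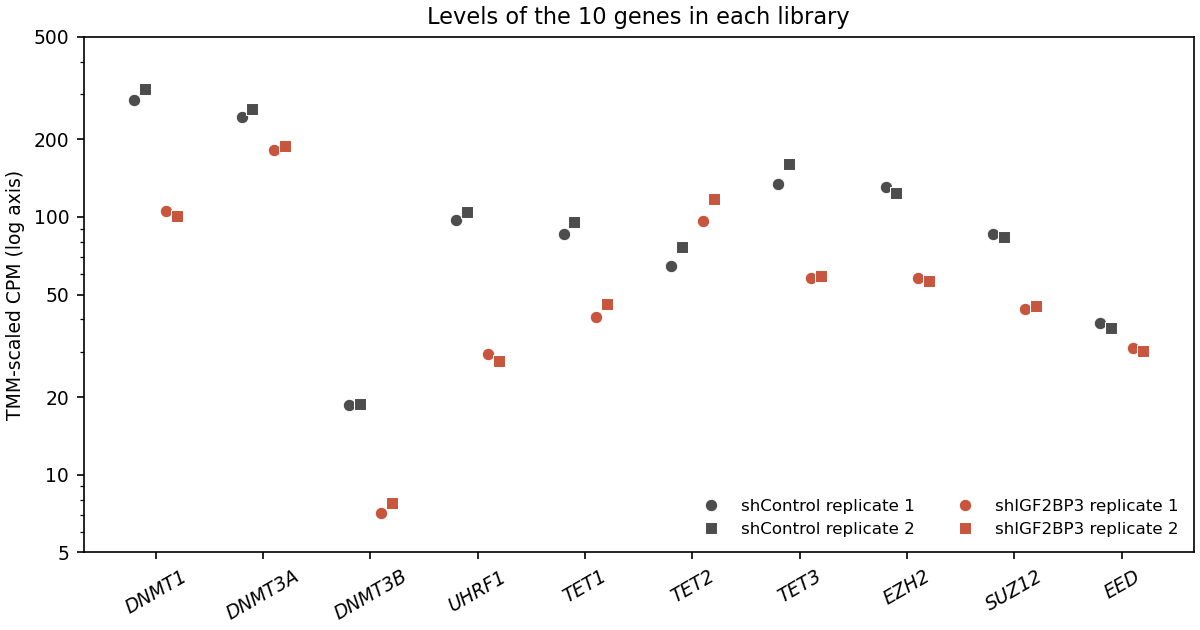
TMM-scaled CPM (y, log axis) of the 10 genes (x) in each library, grey for shControl and red for shIGF2BP3, circles for replicate 1 and squares for replicate 2. For TET2 both red points lie above both grey points, and for the other 9 genes both lie below.

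After knockdown, 9 of the 10 genes fell and TET2 rose (edgeR's quasi-likelihood test, Benjamini-Hochberg adjusted p below 0.05 over all 19767 tested genes). All 10 passed the filter on low counts. Among all tested genes 25.6% were called lower and 25.9% higher, 51.5% in all. The median log2 fold change (shIGF2BP3 over shControl) of the 10 was -1.11, against 0.01 for all tested genes. The libraries of the groups did not overlap in any of the 10, which also held for 74.5% of tested genes. By point estimate, UHRF1 fell most, to 28.2% of its control level, then DNMT1, TET3, DNMT3B and EZH2, while EED fell least, to 80.5%. In bulk RNA, fewer cells in the cycle stages that carry an mRNA and less of that mRNA per cell cannot be told apart.

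**Figure D2:**
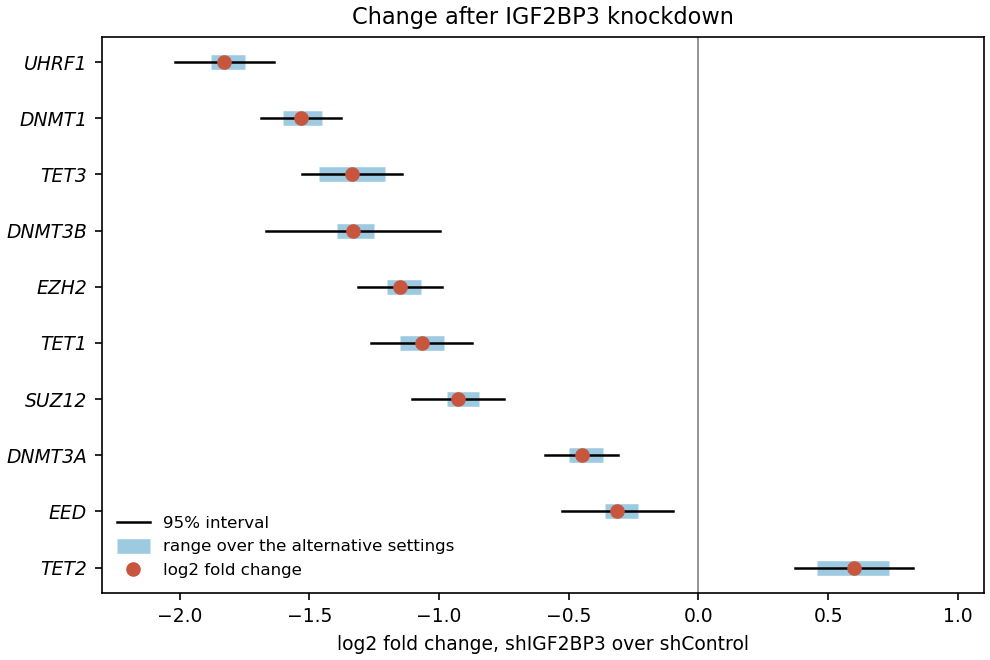
Log2 fold change of each gene (x, shIGF2BP3 over shControl) with its 95% interval (black line) and the range of the estimate over 11 alternative settings (blue bar). UHRF1 lies farthest to the left at -1.83 and TET2 alone lies right of 0, at 0.60.

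Bases around transcription start sites are shown for DNMT1, UHRF1, EZH2 and SUZ12, which fell. These 4 were chosen because they hold a word of the E2F binding site. TET2 and TET3, which moved in opposite directions, are shown as well. The sequences are from RefSeq on GRCh38.p14, each 100 bases long and given on the gene's own strand. For DNMT1 (chr19:10194934-10195033, minus strand), UHRF1 (chr19:4909421-4909520, plus strand) and EZH2 (chr7:148884272-148884371, minus strand) they run from 80 bases before to 20 bases after the start. For SUZ12 (chr17:31936778-31936877, plus strand) they run from 229 to 130 bases before it. For TET2 (chr4:105145795-105145894, plus strand) and TET3 (chr2:73984830-73984929, plus strand) they again run from -80 to 20. Capitals mark an E2F word in the first 4 and the E-box CACGTG in TET2 and TET3.
DNMT1: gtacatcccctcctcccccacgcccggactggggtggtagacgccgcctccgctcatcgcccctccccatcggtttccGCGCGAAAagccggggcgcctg
UHRF1: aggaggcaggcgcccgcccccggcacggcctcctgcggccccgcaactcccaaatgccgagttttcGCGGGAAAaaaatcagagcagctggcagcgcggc
EZH2: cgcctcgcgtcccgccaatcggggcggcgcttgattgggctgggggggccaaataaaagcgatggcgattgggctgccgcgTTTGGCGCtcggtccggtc
SUZ12: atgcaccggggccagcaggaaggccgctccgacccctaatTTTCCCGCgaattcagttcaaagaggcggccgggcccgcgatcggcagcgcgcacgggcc
TET2: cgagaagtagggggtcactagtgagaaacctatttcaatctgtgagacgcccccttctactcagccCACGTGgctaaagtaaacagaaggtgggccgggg
TET3: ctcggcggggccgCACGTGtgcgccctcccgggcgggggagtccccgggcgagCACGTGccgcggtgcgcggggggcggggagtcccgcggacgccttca

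The E2F words searched were TTTCCCGC, TTTGGCGC, TTTCGCGC and TTTGCCGC, on both strands, in windows from 250 bases before to 50 after each RefSeq start. All 10 genes matched the promoter table, with 22 windows in all and 1 to 6 windows each. An E2F word occurred in 5 of these windows, which belong to DNMT1, UHRF1, EZH2 and SUZ12, and in 3.31% of all 35116 windows. Counted by gene, that is 4 of 10 against 3.99% of 27305 genes. No E2F word was found in the windows searched for TET1, TET3, DNMT3A, DNMT3B and EED, which also fell, or for TET2. The only DNMT3B window begins at 32779602, inside the gene, which begins at 32762385. The bases at that annotated start were therefore not searched. The TET1 windows that begin at 68600018 and 68600224 likewise lie inside their gene, which begins at 68560656. The log2 fold change was -1.33 for TET3, without a word in its windows, and -1.15 for EZH2 and -0.93 for SUZ12, which hold one. Any relation between the words and the size of the changes was not tested. Counted from the start, where -1 is the base before it, the word began at -2 in DNMT1, -14 in the first UHRF1 window, 2 in EZH2 and -189 in SUZ12. In DNMT1 and UHRF1 it lies on the opposite strand, so the capitals show its reverse complement. The words contain the pair CG, and the windows of these 4 genes hold 30 to 46 such pairs. The DNMT3B window holds 3, those of TET1 6 to 11 and those of DNMT3A, TET2, TET3 and EED 13 to 46. These counts describe the windows searched only, and the part of CG content in the matches was not tested. CCAAT, on either strand, occurred in 7 of the 10 genes and 39.7% of all genes, the cell cycle word TTTGAA in 3 and 18.2%, and the E-box CACGTG, a word bound by MYC proteins, in 3 (DNMT3A, TET2 and TET3) and 8.77%. These matches are descriptions of letters and were not tested as binding sites. Genes with more windows have more chances of a match.

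By point estimate, the maintenance pair DNMT1 and UHRF1 fell by more than any other gene of the set. The 95% interval of DNMT1 (-1.69 to -1.38) overlaps those of TET3 (-1.53 to -1.14) and DNMT3B (-1.67 to -0.997). The UHRF1 interval, given below, overlaps those of DNMT1 and DNMT3B. DNMT1 (ENSG00000130816, chromosome 19, 10133345 to 10231286, minus strand, GRCh38) stood at 284 and 313 CPM in shControl and at 106 and 100.4 CPM in shIGF2BP3. Both knockdown libraries lay at about the same level, far below either control. The log2 fold change was -1.53 (SE 0.07, edgeR adjusted p = 1.12e-11), which leaves 34.6% of the control mean of 298 ± 20.6 CPM (SD, n = 2). UHRF1 (ENSG00000276043, chromosome 19, 4903080 to 4962154, plus strand) stood at 97.3 and 104 CPM in shControl and at 29.3 and 27.5 CPM in shIGF2BP3. Its log2 fold change was -1.83 (SE 0.09, edgeR adjusted p = 1.93e-11), with a 95% interval from -2.02 to -1.64. Per kilobase of exon, UHRF1 made 0.653 and 0.635 of the DNMT1 level in shControl and 0.527 and 0.522 in shIGF2BP3. The paralog UHRF2, also a reader of hydroxymethylated DNA, fell less, from 78.3 ± 6.35 to 56.4 ± 5.24 CPM (SD, n = 2 each, log2 -0.47, SE 0.09, edgeR adjusted p = 0.000329), so the ratio of UHRF1 to UHRF2 per kilobase went from 2.27 and 2.73 to 1.07 and 0.882.

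The de novo enzymes both fell, DNMT3B by more than DNMT3A. DNMT3A (ENSG00000119772, chromosome 2, 25227855 to 25342590, minus strand) had 245 and 262 CPM in shControl and 183 and 188 CPM in shIGF2BP3. Its log2 fold change was -0.45 (SE 0.07, edgeR adjusted p = 1.95e-05), with a 95% interval from -0.59 to -0.31. DNMT3B (ENSG00000088305, chromosome 20, 32762385 to 32809356, plus strand) had 18.6 and 18.8 CPM in shControl and 7.09 and 7.76 CPM in shIGF2BP3. It was the least abundant of the 10 genes, and its log2 fold change was -1.33 (SE 0.16, edgeR adjusted p = 1.51e-06), with an interval from -1.67 to -0.997 that does not reach that of DNMT3A. Per kilobase of exon the ratio of DNMT3A to DNMT3B was 5.07 and 5.37 in shControl and 9.91 and 9.35 in shIGF2BP3. That ratio was not tested. The germline cofactor DNMT3L had 0 counts in all 4 libraries.

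The TET genes split. TET1 (ENSG00000138336, chromosome 10, 68560656 to 68694482, plus strand) stood at 85.8 and 96.0 CPM in shControl and at 40.9 and 46.0 CPM in shIGF2BP3 (log2 -1.07, SE 0.09, edgeR adjusted p = 2.56e-08). TET3 (ENSG00000187605, chromosome 2, 73986404 to 74108176, plus strand) stood at 134 and 161 CPM in shControl and at 58.2 and 58.9 CPM in shIGF2BP3 (log2 -1.33, SE 0.09, edgeR adjusted p = 1.81e-09). The TET3 controls differed from each other by more than the knockdown libraries did, yet both lay far above them. TET2 (ENSG00000168769, chromosome 4, 105145875 to 105279816, plus strand), the TET enzyme without a CXXC DNA-binding domain of its own, stood at 64.4 and 76.5 CPM in shControl and at 96.7 and 117 CPM in shIGF2BP3. It rose 1.52-fold, a log2 fold change of 0.60 (SE 0.10, 95% interval 0.37 to 0.83, edgeR adjusted p = 0.000314). In both groups replicate 2 was the higher TET2 library, and the gap between groups was of about the size of the gap between replicates. When single libraries were left out the TET2 estimate lay between 0.46 and 0.74 and stayed past the test, with edgeR adjusted p up to 0.00115. The antisense gene TET2-AS1 had 0 counts in all libraries.

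The PRC2 core fell unevenly. EZH2 (ENSG00000106462, chromosome 7, 148807383 to 148884321, minus strand) stood at 130.1 and 124 CPM in shControl and at 57.9 and 56.6 CPM in shIGF2BP3 (log2 -1.15, SE 0.08, edgeR adjusted p = 1.02e-09). SUZ12 (ENSG00000178691, chromosome 17, 31937018 to 32001045, plus strand) stood at 85.9 and 83.3 CPM in shControl and at 43.8 and 45.1 CPM in shIGF2BP3 (log2 -0.93, SE 0.08, edgeR adjusted p = 4.73e-08). In both genes the replicates lay close together and the groups far apart. The partial copy SUZ12P1 on the same chromosome had 286 to 377 counts per library, against 1238 to 2608 for SUZ12, and reads of the copies could have been split either way. EED (ENSG00000074266, chromosome 11, 86244544 to 86278813, plus strand) stood at 38.6 and 37.1 CPM in shControl and at 30.9 and 30.1 CPM in shIGF2BP3, a log2 fold change of -0.31 (SE 0.10, edgeR adjusted p = 0.0160). The EED call ended with scaling by library total alone (edgeR adjusted p = 0.0661) and with DESeq2's Wald test (adjusted p = 0.0513). It also ended without shIGF2BP3 replicate 1, without shIGF2BP3 replicate 2 and without shControl replicate 1, with edgeR adjusted p = 0.0536, 0.0862 and 0.0634. EZH1, the paralog that can replace EZH2 as catalytic subunit, had 43.6 and 49.6 CPM in shControl and 45.8 and 40.9 CPM in shIGF2BP3, overlapping groups (log2 -0.11, 95% interval -0.32 to 0.11, edgeR adjusted p = 0.402). Per kilobase of exon, EZH2 exceeded EZH1 by 4.61-fold and 3.87-fold in shControl and by 1.95-fold and 2.14-fold in shIGF2BP3.

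Per kilobase of exon, so that genes can be compared with each other, the order of levels in shControl was DNMT1 (30.4 ± 2.11 CPM per kilobase), EZH2 (28.1 ± 0.900), DNMT3A (21.1 ± 1.02), UHRF1 (19.6 ± 0.963), SUZ12 (12.9 ± 0.279), TET3 (12.0 ± 1.58), TET1 (9.78 ± 0.775), EED (5.40 ± 0.151), TET2 (4.28 ± 0.519) and DNMT3B (4.03 ± 0.0329), each with SD over 2 libraries. SUZ12 and TET3 overlapped between libraries, as did TET2 and DNMT3B, while the other neighbours did not. In shIGF2BP3 the highest of the 10 was DNMT3A at 15.4 ± 0.344 CPM per kilobase, above EZH2 at 12.7 ± 0.200 and DNMT1 at 10.5 ± 0.398. TET2, the lowest of the TET genes in shControl, was the highest of them in shIGF2BP3 at 6.49 ± 0.879 CPM per kilobase. The length is that of all annotated exons of a gene together, which understates genes with long rare exons.

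The make-up of each family shifted with these unequal changes. Of the summed level of the DNA methyltransferases, DNMT1 made 54.3% and 55.3% in shControl and 39.3% and 37.1% in shIGF2BP3, while DNMT3A went from 38.2% and 37.7% to 55.2% and 56.8%. The sum itself fell to 49.6% of control. Of the TET sum, TET2 made 16.3% and 16.5% in shControl and 39.1% and 42.2% in shIGF2BP3, and the sum fell to 61.1% in spite of the rise of TET2. In the PRC2 core the share of EED rose from 11.6% in each control library to 18.4% and 18.1%, that of EZH2 went from 60.7% and 60.4% to 53.6% and 52.8%, and that of SUZ12 stayed between 27.7% and 29.1%. The core sum fell to 51.2%. These shares are descriptions with no test.

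**Figure D3:**
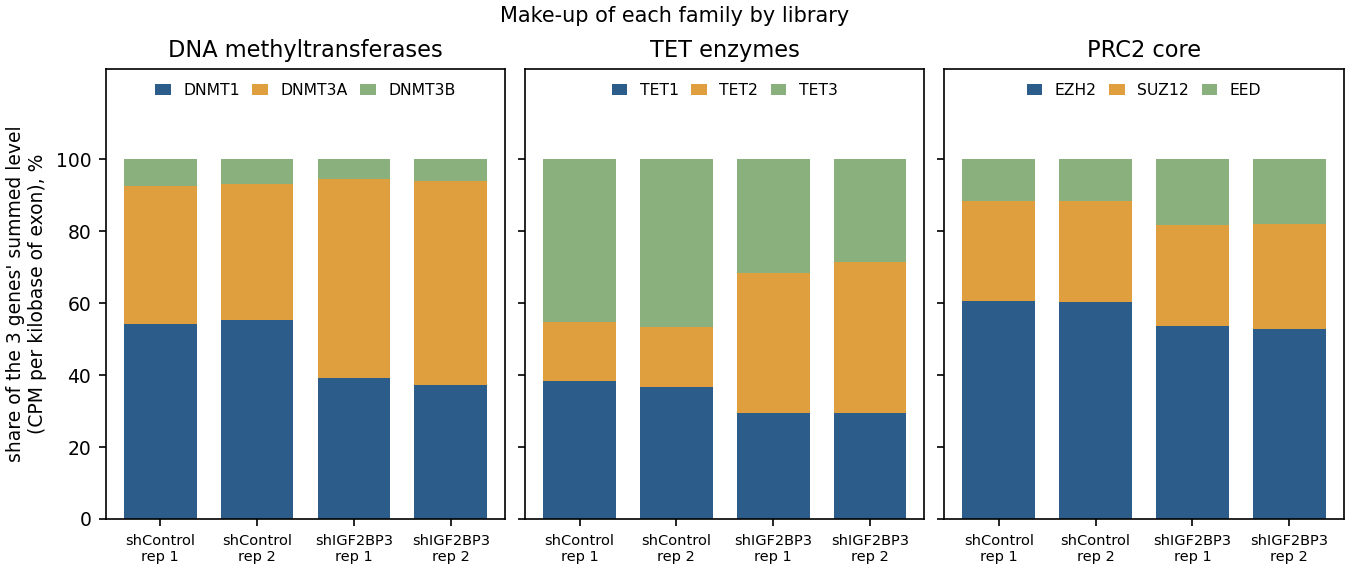
Share of each gene (y, percent of the summed CPM per kilobase of exon of its family) in each library (x), for the DNA methyltransferases, the TET enzymes and the PRC2 core. The DNMT3A share grows from about 38% to over 55% and the TET2 share from about 16% to about 40% after knockdown.

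Partners of the DNA methylation enzymes fell with them. Of 10 listed, 9 were tested and all 9 fell (median log2 fold change -0.51), against 25.6% called lower among all tested genes. The count was 8 with scaling by library total alone, without the low-count filter and with DESeq2. NSD2, which lays down the histone mark that attracts DNMT3A, went from 315 and 349 CPM to 113 and 111 CPM (log2 -1.57, SE 0.07, edgeR adjusted p = 6.71e-12). The remodeller HELLS, which opens chromatin for DNMT1, fell by 1.26 on the log2 scale, and CDCA7, the protein that recruits it, by 1.56. CDCA7L fell by 1.37. Of 18 genes of active demethylation and base excision 9 fell and 2 rose, with a median of -0.27. The shares over all tested genes were 25.6% lower and 25.9% higher. The 2 that rose were OGT, a glycosyltransferase that binds TET proteins, from 317 and 314 CPM to 419.6 and 441 CPM, and IDH1, from 74.8 and 72.7 CPM to 94.5 CPM in both knockdown libraries. TDG, the glycosylase that cuts out the oxidised bases made by the TET enzymes, went from 102 CPM in both controls to 47.7 and 49.3 CPM (log2 -1.07, SE 0.08, edgeR adjusted p = 4.21e-09). NEIL3 fell by 1.69, IDH2, which like IDH1 makes the cosubstrate of the TET enzymes, by 1.25, and CXXC4, a regulator of TET2 protein, by 0.90 on the log2 scale.

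Proteins that bind methylated DNA did not move as a group. The 8 tested included 3 that rose, 2 that fell and 3 not past the test, and their median was 0.15. Over all tested genes the shares were 25.9% higher and 25.6% lower. ZBTB4, a zinc finger repressor that binds methylated sites, rose from 14.4 and 17.8 CPM to 53.2 and 58.4 CPM (log2 1.78, SE 0.12, edgeR adjusted p = 7.42e-10). MBD3 fell by 0.53, and ZBTB38 fell by 0.36 and ZBTB33 rose by 0.24 on the log2 scale. Without shIGF2BP3 replicate 2 only 1 of the 8 rose and 1 fell, and the calls of ZBTB38 and ZBTB33 ended there (edgeR adjusted p = 0.0682 and 0.217). The ZBTB33 call also ended without shControl replicate 1 (edgeR adjusted p = 0.0796).

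Among 12 PRC2 paralogs and accessory subunits, 11 were tested, of which 6 fell and 3 rose, with a median of -0.45. The shares over all tested genes were 25.6% lower and 25.9% higher. PHF19, a subunit that guides PRC2 to its targets, went from 68.9 and 72.0 CPM to 22.9 and 22.1 CPM (log2 -1.65, SE 0.10, edgeR adjusted p = 1.80e-10). JARID2, a second kind of targeting subunit, went from 68.3 and 80.4 CPM to 26.8 and 25.4 CPM (log2 -1.51, SE 0.10, edgeR adjusted p = 1.33e-09). The histone-binding subunits RBBP7 and RBBP4, which other chromatin complexes share and whose reads could be confused with each other, fell by 1.13 and 0.55 on the log2 scale. The count of risers went to 0 without shIGF2BP3 replicate 2 and to 0 without shControl replicate 1. EZHIP, an inhibitor of PRC2, had 7 counts in shControl replicate 2 and 0 elsewhere.

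The opposing and partner complexes of PRC2 were mixed. Of 7 genes that remove the H3K27 or H2AK119 marks or assist in it, 6 were tested, 3 rose and 1 fell, with a median of 0.09. KDM6B, an H3K27 demethylase, rose from 69.4 and 72.7 CPM to 175 and 168 CPM (log2 1.27, SE 0.07, edgeR adjusted p = 1.42e-10), so that EZH2 went from 3.01 and 2.74 times the KDM6B level per kilobase to 0.530 and 0.540 times. Its relative KDM6A stood at 31.3 and 29.2 CPM in shControl and 28.8 and 29.6 CPM in shIGF2BP3 and did not pass the test. USP16 rose by 0.73, ASXL1 fell by 1.02, and BAP1 rose by 0.24 on the log2 scale, the last lost without shIGF2BP3 replicate 1 and without shControl replicate 1 (edgeR adjusted p = 0.109 and 0.0828). Of 21 subunits of Polycomb repressive complex 1, 9 rose and 8 fell, with a median of -0.08. For both lists, the shares over all tested genes were 25.9% higher and 25.6% lower. PCGF1, a subunit of a variant complex, rose from 29.1 and 26.2 CPM to 66.7 and 65.6 CPM (log2 1.26, SE 0.10, edgeR adjusted p = 4.99e-09), while its partner KDM2B fell by 1.01. PHC2 fell by 1.07 and SCMH1 by 0.76 on the log2 scale. The number of lower subunits was 5 without shIGF2BP3 replicate 1, without shIGF2BP3 replicate 2 or without shControl replicate 1, and the number of higher ones was 4 without shIGF2BP3 replicate 1.

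**Figure D4:**
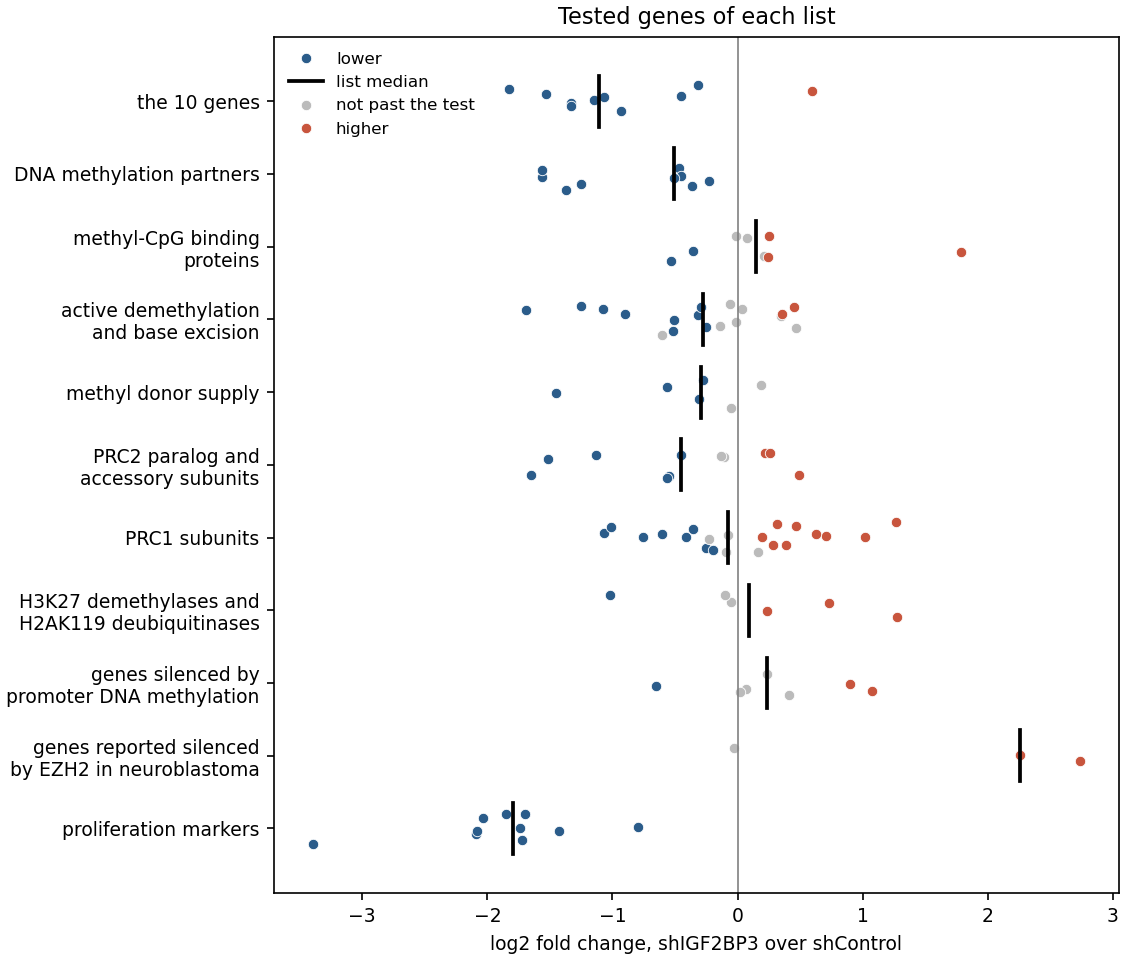
Log2 fold change (x, shIGF2BP3 over shControl) of every tested gene in each list (y), with red for genes past the test and higher, blue for lower, grey for not past the test and a black bar for the list median. The 10 genes and the proliferation markers lie mostly to the left, while the Polycomb repressive complex 1 subunits lie on both sides of 0.

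Genes reported as silenced by DNA methylation or by EZH2 were read in the same libraries. Of 17 genes listed as silenced by promoter DNA methylation in somatic cells, 7 had enough counts to test. In every library 6 had 0 counts (DAZL, MAEL, ASZ1, MAGEA1, MAGEC1 and MAGEC2). Of the 7 tested, 2 rose, 1 fell and 4 did not pass, which is near the 25.9% higher and 25.6% lower among all tested genes. CASP8, often methylated in neuroblastoma, went from 3.34 and 3.26 CPM to 6.53 and 7.40 CPM (log2 1.08, SE 0.23, edgeR adjusted p = 0.000886). The germline factor SOHLH2 rose by 0.90, and PRAME, a tumour antigen, fell by 0.65 on the log2 scale. TDRD1 had 62.1 and 58.5 CPM in shControl and 57.1 and 69.0 CPM in shIGF2BP3 and did not pass. Like TDRD1, PRAME (33.2 and 25.1 CPM) and RASSF1 (18.6 and 17.4 CPM) were already expressed in shControl. Their values therefore cannot show a loss of silencing. CASP8 (90 and 102 counts) and SOHLH2 (82 and 90 counts) also had reads in shControl. Their rises do not by themselves show such a loss. DDX4, too low to test, had 0 counts in both control libraries and 14 and 6 in shIGF2BP3. Of 4 genes reported as silenced by EZH2 in neuroblastoma, CLU and NGFR rose, CASZ1 did not pass and RUNX3 had at most 4 counts. CLU, a secreted chaperone, went from 129.6 and 122 CPM to 615 and 591 CPM (log2 2.26, SE 0.07, edgeR adjusted p = 5.23e-14). NGFR, the low-affinity neurotrophin receptor, went from 10.4 and 10.1 CPM to 72.7 and 64.0 CPM (log2 2.74, SE 0.12, edgeR adjusted p = 3.83e-12). CASZ1 had 23.2 and 28.0 CPM against 27.1 and 23.3 CPM, with overlapping groups and no stable direction. CLU and NGFR were already expressed in shControl as well, so their rises do not by themselves show a loss of silencing. The cause of these rises was not tested. The NGFR rise was known when this list was drawn up.

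Markers of proliferating cells moved in the same libraries. All 10 listed fell (median -1.79 on the log2 scale), against 25.6% called lower over all tested genes. Their summed level was 3390 and 3245 CPM in shControl and 1001 and 993 CPM in shIGF2BP3. MKI67 fell by 1.74, TOP2A by 1.72, CDK1 by 2.09 and BIRC5 by 3.40 on the log2 scale. CCNA2 and RRM2 fell less, with log2 fold changes of -1.43 and -0.80. PCNA, the replication clamp to which DNMT1 binds, went from 243 and 223 CPM to 66.1 and 63.2 CPM. Per kilobase of exon, UHRF1 stood at 0.114 and 0.134 of PCNA in shControl and 0.127 and 0.124 in shIGF2BP3, overlapping values. DNMT1 stood at 0.175 and 0.211 of PCNA in shControl and 0.240 and 0.238 in shIGF2BP3, and EZH2 at 0.174 and 0.182 against 0.285 and 0.291. PCNA itself had a log2 fold change of -1.85, a larger fall than those of CCNA2 and RRM2. The ratios hold for that reference only. The part of proliferation in the fall of the 9 genes was not tested.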

How the data were processed

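RNA from 4 libraries was measured, 2 shIGF2BP3 and 2 shControl. The authors deposited raw whole-number counts per Ensembl gene. The submitters' processing notes name HISAT2 2.2.0, StringTie and hg38, with no role or order. For annotation, strand setting and counting rule nothing is given in the sources used here, so overlapping genes and near-identical copies are uncertain. Symbols came from a gene name table (56105 identifiers) and GENCODE 29 (486), and 7661 had none. Positions and exon lengths are GENCODE 29 on GRCh38.

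Counts were tested with edgeR 4.0.16 (R 4.3.3) over the whole table, with filterByExpr (smallest count 10), TMM, the robust quasi-likelihood test and Benjamini-Hochberg adjustment at 0.05. CPM values use TMM-scaled totals. Standard errors and 95% intervals derive from the test statistic. Intervals and limits at 0 counts cover counting error or the spread of these libraries only. Alternatives were other scalings, no filter, DESeq2 1.42.0, limma 3.58.1 voom, an older edgeR fit, a replicate block and leaving out each library. On counts simulated for this comparison over 19181 genes, 38 of 67 changes of 1.5-fold, 51 of 67 of 2-fold and 63 of 66 of 4-fold were recovered, with 23 false calls, more than the nominal rate. No other simulated gene was changed, whereas 51.5% of tested genes were called in the data. The simulated rates therefore need not carry over. Members and lists were chosen with earlier results of these data known. Named genes were the 10 members, their closest relatives and up to 4 of each list by smallest p. Any other gene named was chosen after its values were seen. Of the sympathetic neuroblast markers, 1 is not reported here, nor is the summed level of that list.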

Additional observations from a re-analysis of the deposited data

How the results depend on the processing

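The older edgeR fit, and every alternative for lists and other genes, was added after seeing the data. Over 110 values of the 10 genes, 105 kept direction and call and 5, all of EED, lost the call (values from -0.36 to -0.23 over all settings). Genes past the test numbered 10178, from 8800 to 9442 when one library was left out, and 8757 without the filter. Of the 10 genes 8 or 9 were lower and 1 higher under every setting run. Scaling by library total alone moved the median of all genes to 0.09 and gave 5739 higher and 4405 lower genes. Same-numbered libraries had deviations correlated at 0.0208, so replicate numbers were not treated as pairs, and the replicate block gave 10509 genes, with 9 of the 10 lower and 1 higher.

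Scaling by library total alone gave 4 lower subunits of Polycomb repressive complex 1 and CASZ1 at 0.0524. Without the filter, 4 of those subunits were lower, 1 methyl-CpG binding protein was higher, 1 PRC2 accessory subunit was higher and ZBTB33 lost its call (edgeR adjusted p = 0.0560). DESeq2 called 1 PRC2 accessory subunit and 5 subunits of Polycomb repressive complex 1 higher. When single libraries were left out, PRC2 accessory subunits called higher ranged from 0 to 3, Polycomb repressive complex 1 subunits from 5 to 6 lower and 4 to 7 higher, and methyl-CpG binding proteins from 1 to 2 in each direction. In the same fits CASZ1 ranged from -0.154 to 0.10 and TDRD1 from -0.0737 to 0.1994. The cause was not tested. A call that is missing at this depth and with 2 libraries a group is no evidence of an equal level.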

Other observations

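Of 6 tested genes that make or recycle the methyl donor of these methyltransferases, 4 fell at the RNA level and 2 did not pass. Over all tested genes 25.6% were called lower. The donor itself was not measured. MAT2B, the regulatory subunit of the enzyme that makes S-adenosylmethionine, averaged 78.3 ± 4.67 CPM in the control libraries and 28.6 ± 2.25 CPM after knockdown (SD, n = 2 each, log2 -1.45, SE 0.10, edgeR adjusted p = 8.63e-10). Its catalytic partner MAT2A fell by 0.28, AHCY, which clears the product that inhibits methyltransferases, by 0.31, and MTR, which regenerates methionine, by 0.56 on the log2 scale.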
